A study of Nezara viridula with 24 samples.

Results

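In the southern green stink bug, a plant-feeding insect of the species Nezara viridula, 106 of 201329 assembled genes were abundant in the salivary glands of corn-fed adults and nearly absent from their midgut. They were chosen by level. The mean over the corn gland libraries was at least 1000 CPM, the usual scaling of a gene's count by the total of its library, and the mean in each of the midgut sections M1, M2 and M3 on corn was at most 1% of it. Of 136 genes that reached the gland floor, the other 30 exceeded the midgut limit in at least 1 section. The corn levels that chose these genes are therefore given as a description, with no test.

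RNA of salivary glands and of midgut sections M1, M2 and M3 was sequenced from adults given either corn or green bean. Insects were moved to fresh food of their diet at the adult moult and dissected after 24 h of feeding. Tissue of 4 to 10 individuals went into each library. The 8 groups (corn glands, corn M1, corn M2, corn M3, green bean glands, green bean M1, green bean M2 and green bean M3) have 3 libraries each, made from polyadenylated RNA. The labels give no strain or sex and do not say which lobes of the gland were taken. They call the replicates biological and do not name separate cultures, and a p-value here therefore refers to the spread among these pools alone.

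Plant-feeding stink bugs pierce tissue with their stylets and digest it partly outside the body. Their paired salivary glands, each with a principal gland and an accessory gland, secrete a gelling saliva that hardens into a sheath around the stylets and a watery saliva that carries enzymes and other secreted proteins. The liquefied food then passes along the sections of the midgut. Secretory glands commonly devote much of their messenger RNA to few secreted products. The deposited tables pair no gene of the assembly with a name or a function, so the genes appear under their assembly identifiers, no role is given to any of them, and the dissected tissues could not be checked against marker genes.

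Library totals ran from 17819164 to 33954593 estimated counts over the 24 libraries. The number of genes with a count separated libraries of one diet. It was 80121 to 122696 in the corn replicate 1 libraries, 34859 to 59469 in corn replicates 2 and 3 and 64667 to 93477 on green bean. The part of this division in the diet comparison was not tested beyond leaving libraries out. Each diet test in the glands used the table of 6 gland libraries. Sections were compared in the table of 18 midgut libraries, and the members were chosen in the table of 12 corn libraries. The same corn gland libraries gave slightly different values in their 2 tables. For a member in a single library the difference was a median of 2.03% and at most 17.5%, so levels set across tables carry no test.

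The 106 genes held 55.3% ± 1.48 of all counts in the corn glands (SD, n = 3), with 54.9%, 57.0% and 54.1% in replicates 1, 2 and 3. In green bean glands they held 60.0%, 55.9% and 52.3%, a mean of 56.1% ± 3.89 (SD, n = 3). These corn shares come from the table of corn libraries, and in the gland table they were 54.7%, 56.9% and 54.0%. Against either set of corn values the green bean libraries lay on both sides, so the summed share did not separate the diets. In the corn midgut M1 gave them 0.0420% ± 0.00676 of its counts, M2 gave 0.0642% ± 0.00681 and M3 gave 0.0605% ± 0.0116 (SD, n = 3 each). In the green bean midgut, whose libraries took no part in the choice, the share was 0.0709% ± 0.0669 for M1, 0.0353% ± 0.00513 for M2 and 0.0455% ± 0.00818 for M3 (SD, n = 3 each). The wide spread in green bean M1 came from replicate 1, at 0.148% (95% Wilson interval 0.146% to 0.150%) against 0.0307% and 0.0338%. Such intervals cover counting error only.

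**Figure D1:**
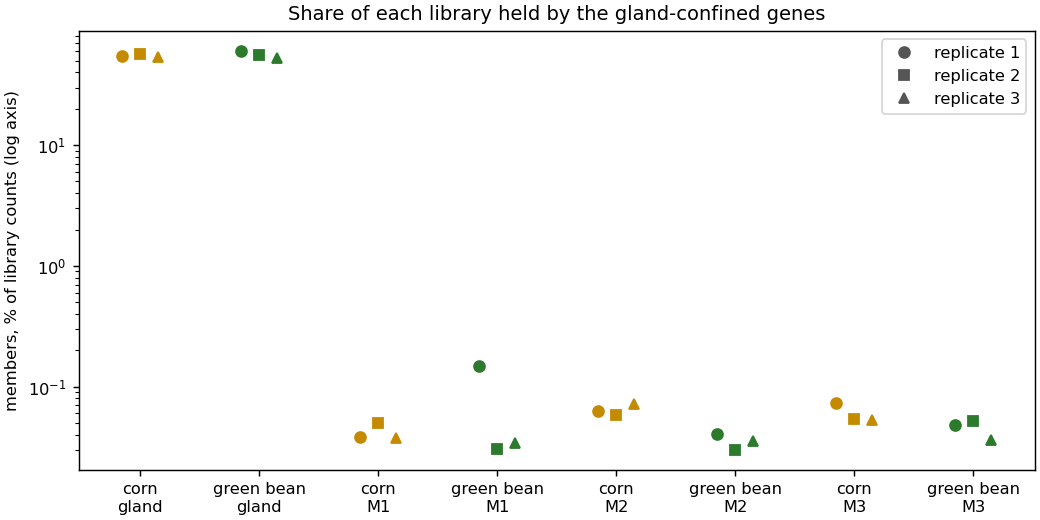
Share of the counts of each of 24 libraries held by the 106 gland-confined genes, in percent on a log axis, by tissue and diet; each point is 1 library, orange for corn and green for green bean, and its shape gives the replicate number. Gland libraries lie between 52.3% and 60.0%, and the highest midgut point is green bean M1 replicate 1 at 0.148%.

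The counts were unequally divided among the 106 genes. Counts are not corrected for transcript length here, so a CPM value is a share of the library and does not rank genes by molecules. In corn glands 11 members were at 10000 CPM or more, 54 between 2000 and 10000 CPM and 41 between 1000 and 2000 CPM, with a median of 2892 CPM. The 6 with the largest counts held 19.0% of all corn gland counts, the top 10 held 24.8% and the top 20 held 32.4%. Members made up 9 of the 10 and 43 of the 50 genes with the largest counts in corn glands. The 30 other genes above the floor together held 14.8%.

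The gene with the largest share, TRINITY_DN629_c0_g1, took 6.26% of corn gland counts. In the gland table it stood at 54888, 68142 and 69028 CPM on corn and at 60674, 28514 and 17104 CPM on green bean, in replicates 1, 2 and 3. The first green bean library lay inside the corn range and the other two lay far below it. The fitted log2 difference, green bean minus corn, was -0.80 (SE 0.56, edgeR adjusted p = 0.70267).

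TRINITY_DN30_c0_g1 followed the same order of libraries. Its corn values were 39937, 40364 and 38823 CPM, and its green bean values were 41896, 23424 and 14357 CPM. The corn libraries were nearly equal, while the green bean libraries spanned the corn level and well below it, with a log2 difference of -0.51 (SE 0.48, edgeR adjusted p = 0.7821).

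The next pair of genes behaved the other way. TRINITY_DN205_c0_g1 had 40526, 34024 and 28265 CPM on corn and 44918, 65429 and 68404 CPM on green bean. TRINITY_DN15236_c0_g1 had 21357, 18464 and 15538 CPM on corn and 25092, 35603 and 37157 CPM on green bean. Every green bean library lay above every corn library for both genes, with replicate 1 the lowest on green bean. The log2 differences were 0.88 (SE 0.37, adjusted p = 0.47923) and 0.90 (SE 0.34, adjusted p = 0.44836) in the edgeR fit, so neither passed the threshold of 0.05.

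The last pair of these 6 genes lay lower on green bean in every library. TRINITY_DN1009_c0_g8 had 15592, 20492 and 16508 CPM on corn against 12375, 3906 and 2820 CPM on green bean, where replicate 1 was again the nearest to corn. TRINITY_DN1479_c0_g1 had 14123, 14996 and 17741 CPM on corn against 5140, 3761 and 3830 CPM on green bean. The green bean libraries of the second gene were close together and all well under the corn range. The log2 differences were -1.40 (SE 0.62, adjusted p = 0.51918) and -1.82 (SE 0.35, adjusted p = 0.12291), both short of the edgeR threshold.

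**Figure D2:**
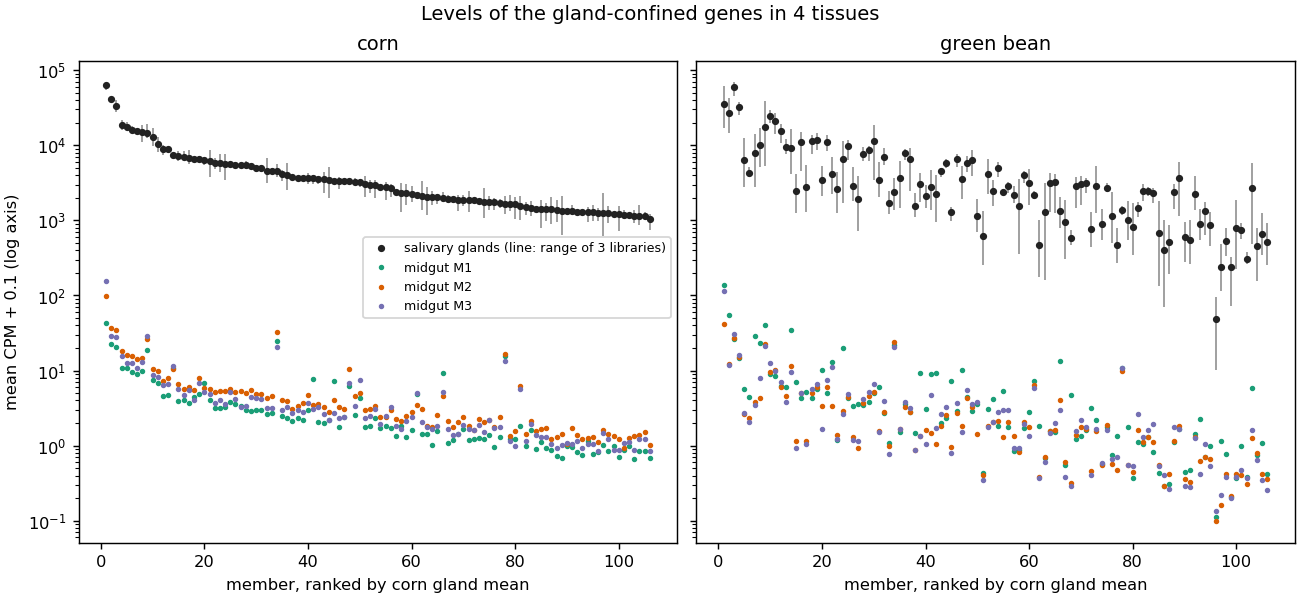
Mean CPM plus 0.1 (log axis) of the 106 genes, ranked from left to right by corn gland mean, for corn (left, corn table) and green bean (right, gland and midgut tables); black points are salivary glands with a line over the range of 3 libraries, and coloured points are midgut sections M1, M2 and M3. On corn the gland levels run from 62562 to 1037 CPM by construction of the ranking, and on green bean the same order is scattered, from 59584 down to 48.1 CPM, with longer lines.

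Near the limits of the choice the values ran on without a gap. Just above the gland floor stood TRINITY_DN17455_c0_g1, at 745, 1158 and 1208 CPM (mean 1037 ± 254, SD, n = 3), and TRINITY_DN13489_c1_g1, at 1139 ± 154 CPM. Just below it stood TRINITY_DN8957_c0_g1, at 2319, 427 and 177 CPM (mean 975 ± 1171), and TRINITY_DN2154_c0_g2, at 962 ± 74.2 CPM. The first of these lower genes was above the floor in replicate 1 alone. At the midgut limit the nearest member was TRINITY_DN9817_c0_g1, whose highest section mean was 0.973% of its gland mean, and the nearest gene outside was TRINITY_DN387_c0_g1, at 1.04% of a gland mean of 13967 ± 2169 CPM.

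In libraries the choice did not use, the confinement to glands was found again for nearly every member. On green bean, 105 of the 106 genes had each midgut section mean at or under 1% of their green bean gland mean. The exception was TRINITY_DN27_c0_g2, at 1.01% in M2. When every single green bean midgut library had to meet the limit, 95 genes did. The gland floor was met less widely, since 81 members had a green bean gland mean of at least 1000 CPM and 80 met the whole rule there. Applied to the green bean libraries alone, the rule gave 86 genes, of which those 80 were 93.0%, and the 80 were 75.5% of the members. Of the 6 further genes, 4 were under the corn floor. Gland and midgut libraries of green bean stand in different tables, and in bulk tissue fewer cells of a type and less RNA per cell cannot be told apart.

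The trace of these genes in the midgut was a nearly fixed fraction of their gland level. On corn the median over members was 0.0612% of the gland mean in M1 (10th to 90th percentile 0.0519% to 0.108%), 0.0969% in M2 (0.0815% to 0.139%) and 0.0793% in M3 (0.0643% to 0.122%). Of the 106 genes, 96, 101 and 97 lay within a factor of 2 of the section's median. On green bean the medians were 0.0605% in M1, 0.0478% in M2 and 0.0515% in M3, with 68, 95 and 91 genes within that factor. The section with the fewest genes near its median was green bean M1, where 29 members exceeded 3 times the median, against 4 to 9 in the other 5 groups. Green bean M1 rested on replicate 1, whose median over members was 0.0914% of the gland mean, against 0.0403% and 0.0394% in replicates 2 and 3. Without it the M1 median was 0.0393%, below M2 and M3, with 91 genes within the factor and 11 over 3 times the median; this alternative was chosen after seeing the data.

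In all midgut libraries but 1, member levels correlated more highly with the gland levels of the same diet than with those of the other diet. Across the 106 genes, with log2 (CPM + 0.1), the 9 corn midgut libraries had r = 0.815 to 0.940 with the corn gland mean and 0.628 to 0.758 with the green bean gland mean. Of the 9 green bean midgut libraries, 8 had r = 0.805 to 0.915 with the green bean gland mean and 0.707 to 0.758 with the corn gland mean. The remaining library, green bean M1 replicate 1, had r = 0.650 with the green bean gland mean and 0.744 with the corn mean. With the replicate 1 gland library of green bean it had r = 0.813. The other midgut libraries of both diets had 0.707 to 0.849 with that gland library, so this value was not particular to M1 replicate 1. These are correlations across genes that share libraries, depth and a choice by corn level, and genes are not independent replicates. Whether the trace reflects RNA made in the midgut or RNA from the glands was not tested.

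**Figure D3:**
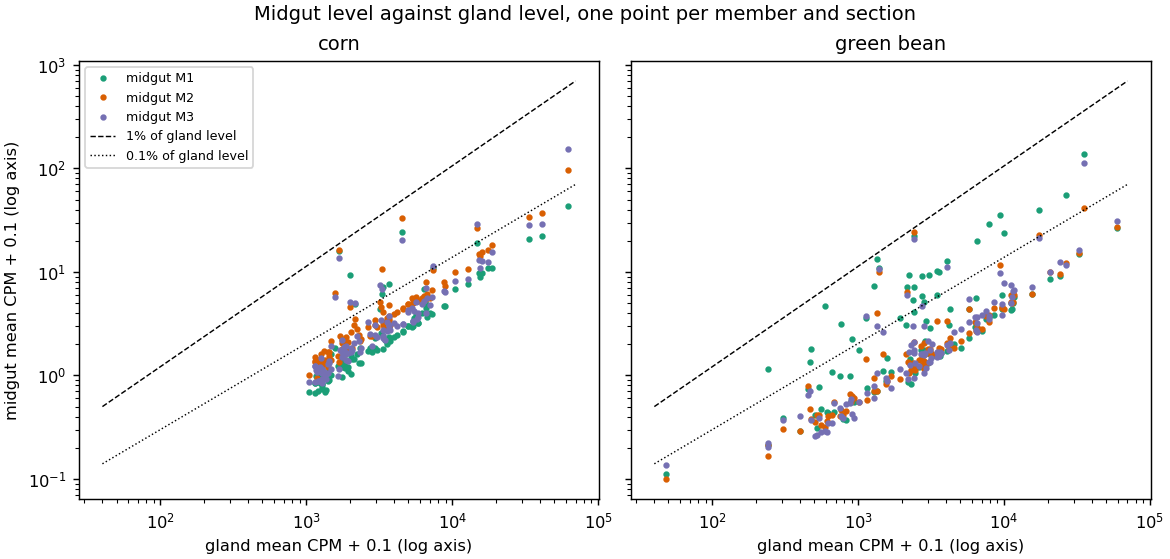
Mean midgut level against mean gland level of the 106 genes, both as CPM + 0.1 on log axes, for corn (left) and green bean (right), with 1 point per gene and section, coloured by section; the dashed line marks 1% and the dotted line 0.1% of the gland level. Most points form a band under the dotted line that follows the gland level, and on green bean a set of M1 points rises above it.

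A reverse set gives a scale for these fractions. There were 25 genes with at least 1000 CPM in every corn midgut section and a corn gland mean of at most 1% of each. Their gland level was a median 0.293% of the mean over sections, with a range of 0.233% to 0.682%. For the 106 gland-confined genes the midgut mean was a median 0.0788% of the gland level, with a range of 0.0656% to 0.905%. The 10th to 90th percentile ranges, 0.259% to 0.416% and 0.0684% to 0.131%, did not overlap. Both sets were chosen on these corn levels, so the difference is a description.

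Only 2 members exceeded 3 times the median fraction in all 6 midgut groups. TRINITY_DN27_c0_g2 stood at 0.537%, 0.724% and 0.449% of its gland level in corn M1, M2 and M3, and at 0.921%, 1.01% and 0.859% on green bean. In corn M2 its libraries were uneven, at 73.6, 15.5 and 9.55 CPM, whereas in green bean M2 they were 24.2, 28.0 and 20.6 CPM. TRINITY_DN9817_c0_g1 stood at 0.936%, 0.973% and 0.807% on corn and at 0.778%, 0.716% and 0.769% on green bean. Its midgut libraries ranged from 6.72 to 17.3 CPM over both diets, while its gland libraries ranged from 1151 to 2017 CPM in the gland table. For these 2 genes the green bean gland mean was 2394 ± 1148 and 1379 ± 196 CPM (SD, n = 3 each).

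The leading gene TRINITY_DN629_c0_g1 had its own profile along the corn midgut. Its values were 36.8, 56.3 and 37.0 CPM in M1, 119, 79.7 and 94.0 CPM in M2, and 196, 139 and 128 CPM in M3. Each section lay wholly above the one before it, in libraries that the choice used. On green bean it had 365, 21.0 and 31.8 CPM in M1, 48.0, 39.4 and 36.8 CPM in M2, and 105, 130 and 103 CPM in M3. M3 again lay above M2 in every library, by 1.53 on the log2 scale (SE 0.80), which did not pass the edgeR test (adjusted p = 0.45577).

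Green bean midgut sections were compared by edgeR's quasi-likelihood test over 23008 genes, with all 106 members tested. From M1 to M2, 2 members (1.89%) fell and 0 rose, against 1.66% of all tested genes called lower and 1.46% called higher. The share of members that fell was thus near that of all genes. Both are named after their values were seen. TRINITY_DN865_c0_g2 fell by 1.93 on the log2 scale (SE 0.47, adjusted p = 0.036884) and TRINITY_DN2984_c0_g1 fell by 3.28 (SE 0.71, adjusted p = 0.018701). Leaving out M1 replicate 1 or any M2 library called 0 members, and leaving out M3 replicate 2 or 3 called 1. DESeq2 called 18 members lower, or 17% of them, against 3.67% of all genes, so this count depends on the test. From M2 to M3 no member passed the test in edgeR, where 1 had an unadjusted p under 0.05, and 1 passed as higher in DESeq2 (4.98% of all genes); in edgeR 2.27% of all genes were called higher and 2.7% lower.

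From M1 to M3, 6 members fell and 0 rose, against 6% of all genes called lower and 5.55% called higher. In this edgeR fit the members' share, 5.66% lower, was near the background. Some alternatives put it above the background and others below. DESeq2 called 17 members lower, or 16%, against 8.84% of all genes. Same-numbered libraries of these sections deviated together, but so did replicates 2 and 3 across them. With the replicate number as a block, shared by both diets, 3 members (2.83%) were called lower, against 6.79% of all genes. Without M1 replicate 1, the 3 called were 1 higher and 2 lower (0.943% and 1.89%), against 3.73% and 4.43% of all genes. Leaving out M1 replicate 2 or 3 gave 10 and 11 called lower. These were 9.43% and 10.4% of the members, against 2.52% and 2.59% of all genes. Leaving out an M2 or M3 library gave 2 or 3 called lower, or 1.89% to 2.83%, against 2.18% to 3.65% of all genes. The median log2 difference over the members was -0.24 from M1 to M3, against 0.06 over all genes tested. It was 0.37 without M1 replicate 1, against 0.12 over all genes, with 81 of 106 members positive, and 0.03 without M3 replicate 3, so its direction rests on single libraries.

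The called member with the largest fall rested on 1 library. TRINITY_DN848_c0_g1 had 13.2, 0.237 and 0.214 CPM in green bean M1, and 0.129, 0.177 and 0.272 CPM in M3. Replicate 1 of M1 alone was high, and the other libraries overlapped with M3. Its log2 difference was -4.74 (SE 1.36, edgeR adjusted p = 0.034608), and -0.30 (adjusted p = 0.897) without that library. With the replicate block its adjusted p was 0.0760.

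TRINITY_DN865_c0_g2, picked with its values in view, had another pattern. It had 15.8, 13.7 and 10.3 CPM in green bean M1, 3.43, 3.66 and 4.78 CPM in M2 and 2.64, 2.50 and 3.57 CPM in M3. All M1 libraries lay above all M2 and M3 libraries. From M1 to M3 it fell by 2.30 on the log2 scale (SE 0.47, edgeR adjusted p = 0.0051295), and it passed under every alternative run, with adjusted p-values from 3.41e-06 in DESeq2 to 0.0472 without M3 replicate 2. On corn, as a description, M1 had 6.82, 10.8 and 10.2 CPM, above all M2 and M3 libraries at 3.30 to 5.49 CPM. In the glands it stood at 2006 ± 365 CPM on corn and 1335 ± 639 CPM on green bean (SD, n = 3 each, gland table).

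The diets were compared in the glands over 12741 genes, with all 106 members tested. By edgeR's quasi-likelihood test 0 members were called higher and 0 lower on green bean, where 0.0157% of all genes were called higher and 0.102% lower. The smallest adjusted p among members was 0.07225. At an unadjusted p under 0.05 there were 38 members, 19 in each direction, which is 35.8% of them against 10.2% of all genes tested. DESeq2 called 14 members higher and 14 lower, against 1.45% and 1.7% of all genes. The diet calls thus depend on the test, and no member is described as changed. The corn gland libraries tested here also took part in the choice of members. Only 136 genes reached the gland floor, so most of the genes tested had lower levels than the members. The excess of members over all genes is therefore a description.

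Counted without a model, 21 members (19.8%) had every green bean gland library above every corn library, and 28 (26.4%) had every one below. Over all genes tested the shares were 4.19% and 13.7%. The remaining 57 overlapped. The 21 higher members had log2 differences between 0.58 and 1.08 with a median of 0.87, and the 28 lower members had differences between -4.66 and -0.54 with a median of -1.38. The downward differences thus reached further than the upward ones. The median over all 106 was -0.21, against -0.02 over all genes, and it was 0.31 without corn gland replicates 2 and 3. The corn gland level is part of the choice, and members under 2000 CPM on corn had a median of -0.62 (41 genes), against 0.14 for the 65 above.

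**Figure D4:**
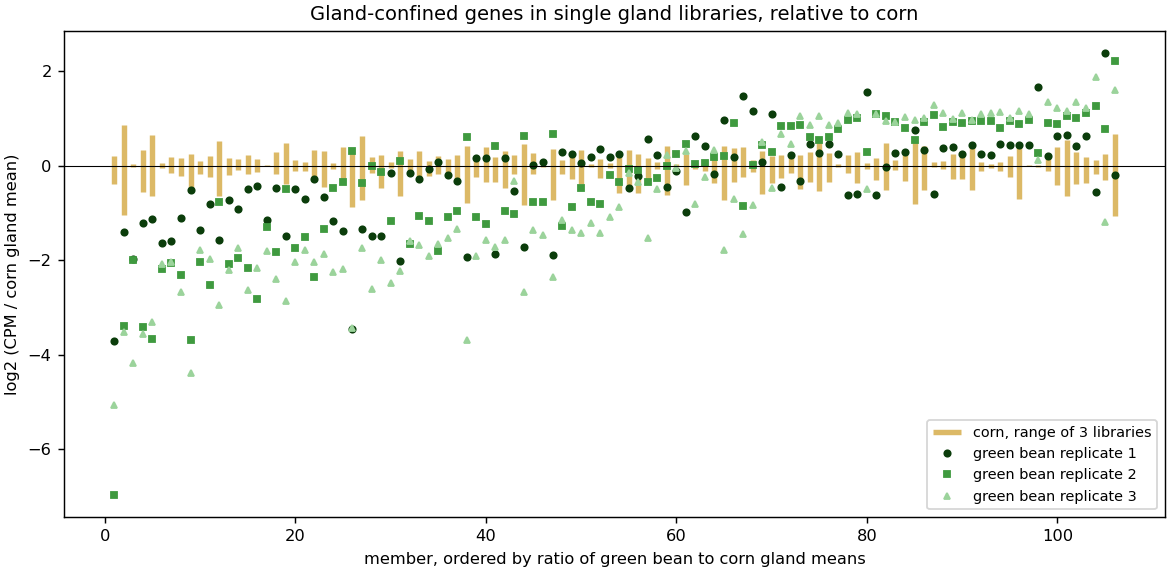
Log2 ratio of each gland library to the corn gland mean (gland table) for the 106 genes, ordered by the ratio of green bean to corn means; orange bars span the 3 corn libraries and green symbols are the 3 green bean libraries. On the left replicate 1 (dark circles) mostly lies nearest to corn, with replicates 2 and 3 lower, and on the right it again lies nearer to corn than replicates 2 and 3.

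No member met the rule for naming a gene by diet, which needed an adjusted p under 0.05, so the largest differences without overlap are given, chosen after their values were seen. TRINITY_DN266_c0_g1 had 5963, 3622 and 2611 CPM on corn and 6362, 8366 and 9045 CPM on green bean, a log2 difference of 1.08 (SE 0.33, edgeR adjusted p = 0.36078). TRINITY_DN2514_c0_g1 had 12971, 10694 and 8159 CPM on corn and 14088, 21202 and 27036 CPM on green bean, a log2 difference of 1.05 (SE 0.36, edgeR adjusted p = 0.41102). In both, green bean replicate 1 lay just above the highest corn library and the other two lay well above it. DESeq2 gave adjusted p = 0.00509 and 0.0127 for these genes. Over all alternatives the adjusted p ran from 4.81e-10 to 0.857 for the first and from 7.03e-11 to 0.876 for the second, both lowest with no filter on low counts.

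At the other end, TRINITY_DN1056_c0_g2 had 961, 1452 and 1368 CPM on corn and 96.4, 10.1 and 37.8 CPM on green bean. Its log2 difference of -4.66 (SE 0.85) was the largest in size among the members, with an adjusted p of 0.11699 in edgeR and 1.56e-09 in DESeq2. The midgut followed, with 0.487 to 1.29 CPM over the 9 corn libraries and no count in 6 of the 9 green bean libraries. All 3 libraries of green bean M2 were at 0, where 3 counts, the limit that a count of 0 allows, correspond to 0.104 to 0.132 CPM. TRINITY_DN7202_c0_g2 had 1322, 1275 and 1269 CPM on corn and 329, 325 and 71.5 CPM on green bean, a log2 difference of -2.34 (SE 0.57, edgeR adjusted p = 0.21918, DESeq2 adjusted p = 0.000574). The corn libraries of this gene were nearly equal, and every green bean library was far below them. For both genes the adjusted p was lowest in DESeq2 and reached 0.620 with no filter on low counts.

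The gland-confined genes varied more between green bean gland libraries than between corn ones. The highest of 3 libraries was a median 2.75 times the lowest on green bean, with a range of 1.19 to 19.5, and 1.41 times on corn, with a range of 1.02 to 3.77. A ratio of 3 or more was found in 44 members on green bean and in 2 on corn. Among all genes with a corn gland mean of at least 100 CPM, members included, the medians were 1.42 on green bean and 1.37 on corn. Among the 30 other genes above the gland floor they were 1.67 and 1.38. The levels of members correlated across genes at r = 0.889 to 0.956 between corn libraries and at 0.749 to 0.890 between green bean libraries, where the highest value was that of replicates 2 and 3. The difference in spread between the diets was not tested.

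On green bean 51 members were highest in replicate 1, 23 in replicate 2 and 32 in replicate 3. The 51 held 35.1%, 16.2% and 10.6% of the counts of green bean replicates 1, 2 and 3, and 32.3%, 34.2% and 31.8% of the corn gland libraries. The 23 held 3.35%, 7.10% and 4.06% on green bean and 4.13%, 5.46% and 5.46% on corn. The 32 held 21.6%, 32.6% and 37.6% on green bean and 18.5%, 17.4% and 16.9% on corn. From replicate 1 to replicates 2 and 3 the share of the 51 was lower and that of the 32 higher, and in both of these sets green bean replicate 1 was the library nearest to corn. For the 23 genes replicate 3 was nearer to the corn mean. The corn shares of these sets come from the table of corn libraries and the green bean shares from the gland table. These sets were formed from the same green bean values, so the division is a description.

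The division ran along the diet difference. Of the 21 members higher on green bean without overlap, 20 had their lowest green bean value in replicate 1 and 18 their highest in replicate 3. Of the 28 lower members, 24 had their highest green bean value in replicate 1. In these genes the diet difference and the difference among green bean pools moved together, and the part of 1 in the other was not tested.

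The same green bean replicate stood out in M1. In M1 replicate 1, 43 of the 106 genes had at least 3 times the mean of M1 replicates 2 and 3. They were 39 of the 51 genes highest in gland replicate 1, 3 of the 23 highest in replicate 2 and 1 of the 32 highest in replicate 3. The median ratio was 6.73 in the first set, 1.11 in the second and 1.34 in the third. The 51 genes supplied 86.2% of the member counts in that library, and TRINITY_DN629_c0_g1 alone had 365 CPM there. Across the 106 genes the log2 difference of replicate 1 from the mean of replicates 2 and 3 in the glands had r = 0.627 with that in M1, r = -0.04 with that in M2 and r = 0.15 with that in M3. No such count or correlation over all genes is given, so neither is shown to be particular to the members. The labels do not say whether libraries with the same number came from the same insects.

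**Figure D5:**
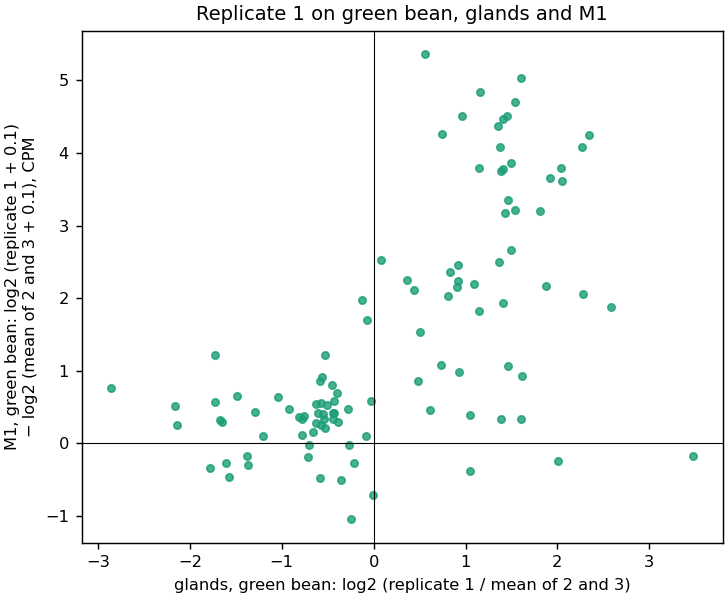
For each of the 106 genes on green bean, the log2 ratio of replicate 1 to the mean of replicates 2 and 3 in the glands (horizontal) against the same difference in midgut M1, as log2 (CPM + 0.1) (vertical). Genes right of the vertical line, higher in gland replicate 1, mostly lie above the horizontal line, by up to more than 5 on the log2 scale, while genes left of it lie closer to the horizontal line.

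In midgut sections M2 and M3, nearly all members that were wholly lower in green bean glands were wholly lower as well, and of those wholly higher in the glands 0 were wholly higher. Across members, the log2 ratio of green bean to corn in the glands had r = 0.432 with that in M1, 0.889 with that in M2 and 0.850 with that in M3, and r = 0.828 in M1 without green bean M1 replicate 1. The sign was the same as in the glands for 70, 65 and 85 of 106 members in M1, M2 and M3. The median log2 ratio over all members was 0.22 in M1, -0.84 in M2 and -0.71 in M3, so the traces in M2 and M3 were lower on green bean as a whole. The M1 median includes green bean M1 replicate 1, and no M1 median without it is given. In summed share that library, at 0.148%, lay above the corn M1 libraries (0.0381%, 0.0492% and 0.0374%). Green bean M1 replicates 2 and 3, at 0.0307% and 0.0338%, lay below all of them. Of the 28 genes lower in green bean glands without overlap, 26 in M2 and 27 in M3 also had every green bean midgut library below every corn library, and 8 in M1. Of the 21 higher genes, 2 in M1 and 0 in M2 and M3 had every green bean library above, and 1 in M2 had every one below. Members without separation in the glands were often below too, and in all 18 (17%), 62 (58.5%) and 54 (50.9%) of the 106 were wholly below in M1, M2 and M3, while 7 (6.6%), 1 (0.943%) and 0 were wholly above. Over the 23008 genes tested in the midgut, 2.83%, 6.09% and 11.6% were wholly below and 13.5%, 17.2% and 2.75% wholly above. The corn midgut levels took part in the choice, so these counts carry no test.

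Some members share an assembly cluster, the DN number of an identifier, which groups transcripts that overlap in sequence; reads may be divided between such genes with error. The 106 genes fell into 96 clusters, of which 9 held more than 1 member, 19 genes in all. The largest, DN591, held 3 members. Their corn gland means in the gland table were 1798, 6963 and 6463 CPM for TRINITY_DN591_c0_g1, TRINITY_DN591_c0_g2 and TRINITY_DN591_c5_g1, and their green bean means were 3104, 11098 and 11322 CPM. All 3 were highest in green bean replicate 3, with log2 differences of 0.88 (SE 0.30), 0.71 (SE 0.49) and 0.86 (SE 0.35), none past the edgeR threshold (adjusted p = 0.4067, 0.69773 and 0.47513). In 1 of the 8 other clusters, DN2048, the members differed in sign, with log2 differences of 0.41 (SE 0.53) for TRINITY_DN2048_c0_g2 and -0.87 (SE 0.47) for TRINITY_DN2048_c1_g3.

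A pair from different clusters kept a nearly constant ratio in the glands, and this ratio ranged more widely in the midgut. TRINITY_DN205_c0_g1 divided by TRINITY_DN15236_c0_g1 gave 1.76 to 1.84 in the 6 gland libraries, with a mean of 1.81 ± 0.0363 (SD), and 1.66 to 2.16 in the 18 midgut libraries. Midgut levels were low, at 24.9 to 29.9 CPM for the first gene and 13.3 to 17.2 CPM for the second in green bean M1. Counting error is therefore larger in the midgut, and the wider range there was not tested against it. The pair was picked with its values in view, and no spread over other pairs is given. The members had 541 isoforms in all, with a median of 4 and a maximum of 19, and 20 members had 1. Among the 86 with several, the leading isoform held a median 75.8% of the gene's corn gland counts, and 77 of the 86 had the same leading isoform on green bean.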

How the data were processed

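The submitters' processing notes name DESeq2 1.20.0, Salmon 0.12 and Trim Galore 0.4.4 without saying what each did or when. The authors deposited estimated counts, already whole, for 298322 Trinity transcripts in 3 tables, of corn, gland and midgut libraries. How the tables were scaled is not stated in the labels. Every column matched a labelled library.

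Isoforms were summed to Trinity genes and CPM taken over column totals. The members, lists and tests were chosen with earlier results of these data known. Tests used edgeR 4.0.16 in R 4.3.3 (filterByExpr, TMM, robust glmQLFit, two-sided glmQLFTest) within 1 table, with Benjamini-Hochberg adjustment over all genes tested and a threshold of 0.05; DESeq2 1.42.0 was an alternative. A fold change's SE is its size over the square root of F. The scripts were checked on simulated data. Genes were named as the 6 with the largest corn gland level, those next to the limits of the choice, the members called by diet or from M1 to M3 with the largest differences, and the cluster with the most members. Exceptions are given where they occur.

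Each pair of replicates differed well beyond counting noise, the chi-square divided by its degrees of freedom being 54.2 to 498 for genes with at least 20 joint counts. Samples of the same number were compared by the correlation of their deviations from group means. It was -0.09, -0.09 and 0.15 between gland diets, so these were not treated as paired. It was 0.81, 0.11 and 0.74 between green bean M1 and M2. Between M1 and M3 it was 0.89, 0.60 and 0.78, and between M2 and M3 0.76, 0.0014 and 0.77. Pairs of different number reached 0.67 (M1 replicate 2, M3 replicate 3) and 0.62 (M1 replicate 3, M3 replicate 2). The main section fits had no pairing. The replicate number, taken as shared by both diets, was a block only in an alternative.

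Library totals are large, so 3 counts lie well under 1 CPM. Alternatives changed the member rule, the test, the scaling, the low-count filter, the libraries and the replicate block.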

Additional observations from a re-analysis of the deposited data

How the results depend on the processing

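Members numbered 65 with a floor of 2000 CPM, 103 to 107 without each corn replicate and 104 to 131 under the other rules on genes; single isoforms gave 135, from 94 genes of which 90 were members. With members chosen on TMM-scaled CPM (122), their share of corn gland counts was 58.6%. Leaving out a library moved that share between 54.4% and 55.8%, the green bean share between 54.1% and 57.96%, and the count of genes confined on green bean between 104 and 105.

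For diet in the glands, DESeq2 called 14 members higher and 14 lower, no filter on low counts 22 and 6 (20.8% and 5.66% of members, against 0.251% and 0.156% of 131158 genes tested), and library totals 0 and 1, where the median of all genes stood at -0.10. Leaving out a library called 0 higher in each case and 0 to 1 lower, with 1 without green bean replicate 1 or corn replicate 1; the median over members ranged from -0.50 to -0.10, and was 0.31 without corn replicates 2 and 3, where 0 members were called. The replicate block called 0 and 0.

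For green bean M1 to M2, DESeq2 called 18 members, all lower, and no filter 9, all lower (8.49%, against 0.21% of 193769 genes). Green bean libraries alone called 1 (1.1% of members tested, against 1.71% of genes lower), and leaving out a library 0 to 3. The replicate block kept the count of 2 (1.89%, against 2.32% of genes lower). From M2 to M3, DESeq2 called 1 and leaving out a library 0 to 1. From M1 to M3, DESeq2 called 17, no filter 10, all lower (9.43%, against 0.553% of all genes), and leaving out a library 2 to 11. The replicate block called 3 lower (2.83%, against 6.79% of genes). Green bean libraries alone also called 3 lower (3.3% of members tested, against 9.47% of genes). Fits without a library were filtered anew and tested more genes. The cause of these differences was not tested. For the 6 members recomputed singly (4 by diet, and TRINITY_DN848_c0_g1 and TRINITY_DN865_c0_g2 from M1 to M3), no difference changed sign; other named members were not recomputed. Traces of a few CPM rest on a median of 25.5 to 96.5 counts per member and library, which limits single-gene comparisons in the midgut.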
